A study of Mus musculus with 7 samples.

Results

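Macrophage genes were described in RNA-seq libraries of mouse embryonic fibroblasts under chemical reprogramming, given R406 or its solvent DMSO. The genes are 42 known markers and effectors of macrophages, taken by symbol from a table of 53715 genes, and all 42 were found there. They were divided by where they are known to be expressed. The first class holds 22 genes largely restricted to myeloid cells, the second holds 12 genes shared with other leukocytes or with platelets, and the third holds 8 genes that fibroblasts, epithelium or endothelium also express.

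R406 inhibits the kinase Syk and is the active metabolite of fostamatinib, and the series is titled after a signalling axis of Syk, calcineurin and NFAT. RNA was sequenced from 2 libraries of cells given R406 and 2 libraries of cells given DMSO. All 4 libraries came from fibroblasts of embryonic day 13.5 embryos of the OG2 strain, CBA-Tg(Pou5f1-EGFP)2Mnn/J, which carries a green fluorescent transgene under Pou5f1 control, and the labels call the harvested cells intermediates of pluripotent reprogramming. Both groups were kept in Stage 1 medium, which holds serum and serum replacement, bFGF, VPA, CHIR99021, 616452, Parnate, Forskolin, AM580, EPZ004777 and vitamin C, and which was renewed every 4 days over 12 days. A second assay, CUT&Tag, recorded FLAG-tagged Nfatc1 on chromatin in 1 library with R406 and 1 library with DMSO, each after 4 days. The cells of these libraries also came from embryonic day 13.5 embryos. Those cells carried rtTA and TetO-Flag-Nfatc1 from lentivirus and received Dox, so the tagged factor was supplied and not the cells' own. Neither the dose of R406 nor the day of RNA harvest is stated in the labels.

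Macrophages are phagocytes of every tissue, in the embryo as well as in the adult. They depend on the growth factor receptor CSF1R and on the transcription factor PU.1, the product of Spi1. They take up particles through Fc, complement, lectin and scavenger receptors, several of which signal through adaptors that recruit Syk.

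Values are in TPM, transcript abundance scaled by gene length and to a fixed library total, so levels can be compared between genes. Sequencing depth cannot be read from TPM, so the read number under each value is unknown, and an exact 0 is given as listed at 0. Ribosomal protein genes made up 19.6% and 22.6% of TPM in the R406 libraries and 14.2% and 15.7% in the DMSO libraries. Mitochondrial genes made up 6.72% and 10.3% in R406, against 10.5% and 14.2% in DMSO. Results with both sets and Gm genes removed are given among the alternatives near the end, and the part of each set alone was not tested. The labels do not say whether the replicates were separate cultures, and the spread that p-values measure may therefore be technical. Bulk RNA cannot tell fewer cells of a type from less RNA per cell.

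Most macrophage genes stood at a small part of their DMSO level in R406, with Lyz2, the C1q genes, the Ms4a genes and Fc receptor genes among them, while Alox5ap stood far higher. Across all 42 genes, the median level was 0.104 and 0.0997 TPM in the R406 libraries, against 2.36 and 1.78 TPM in the DMSO libraries. The R406 libraries lay below both DMSO libraries for 33 genes, above both for 1 gene, and overlapped them for 8. Among the genes tested over the whole table, 30.2% lay below and 25.9% lay above in this way. Those genes averaged 1 TPM or more, which 17 of the 42 did not. The median difference of the 42 genes on the log2(TPM + 1) scale was −1.05, against −0.02 over all genes tested.

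**Figure D1:**
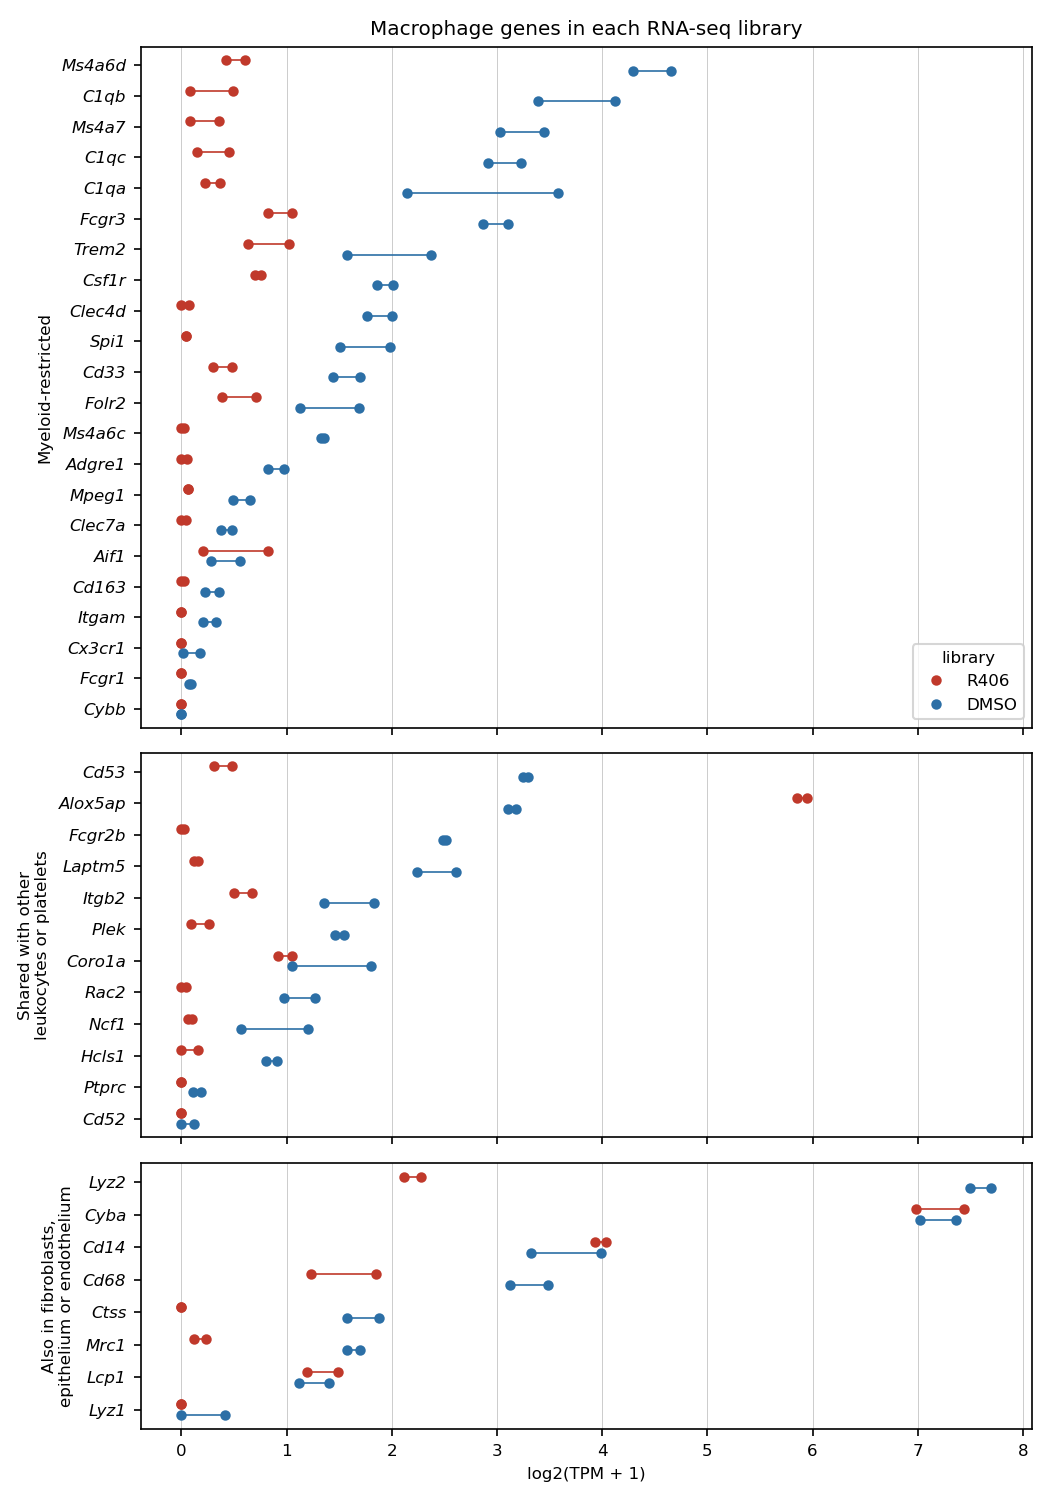
Level of each of the 42 macrophage genes in the 2 R406 libraries (red) and the 2 DMSO libraries (blue), on a log2(TPM + 1) axis, in 3 panels by class and sorted by DMSO level within each; a line joins the libraries of a group. In the top panel the red points lie left of the blue points for 20 of 22 genes. In the middle panel Alox5ap lies to the right and Coro1a and Cd52 overlap. In the bottom panel Cyba, Cd14, Lcp1 and Lyz1 overlap.

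To be tested, a gene had to average 1 TPM or more across the libraries, and 25 of the 42 genes did. Of these, 17 fell and 1 rose at a Benjamini-Hochberg adjusted p of 0.05 in limma, and 7 did not pass. Over the whole table, 4.05% of 13929 genes fell and 4.26% rose. Of the 25 genes, 19 averaged under 1 TPM in R406 and so were tested only because of their DMSO level, which makes these counts a description and no support. The other 17 genes averaged under 1 TPM and were not tested.

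The R406 mean was also read as a percentage of the DMSO mean, for genes with at least 0.5 TPM in DMSO. Since that level was set on DMSO alone, the genes let in are those present in DMSO, and the shares below are a description too. That level was reached by 31 of the 42 genes, with Hcls1 just above it (DMSO mean 0.816 TPM) and Mpeg1 just below it (DMSO mean 0.491 TPM). The R406 mean was under 25% of the DMSO mean in 24 of the 31, against 3.13% of 15178 genes at that level, and under 10% in 19 of the 31, against 1.27%. The median was 6.32% over the 31 genes and 96.8% over all genes at that level. R406 libraries lay below both DMSO libraries for 26 of the 31 (31.7% of all genes at that level) and above both for 1 (23.7%).

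The myeloid-restricted class was at a low summed level in R406. Its 22 genes added up to 4.85 and 5.29 TPM in the R406 libraries, against 91.1 and 75.6 TPM in the DMSO libraries, so the R406 sum was 6.08% of the DMSO sum. Of the 22 genes, 12 were tested, of which 10 fell, 0 rose and 2 did not pass limma's threshold, with all 12 at an unadjusted p under 0.05, as were 26.8% of all genes tested. The class median on the log2(TPM + 1) scale was −1.16 over all 22 genes.

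C1qa, C1qb and C1qc encode the chains of C1q, the recognition part of the classical complement pathway, and macrophages are a main source of them. The genes lie side by side on chromosome 4 within 18.7 kb (GRCm38.p6, chr4:136880126-136898844). C1qb stood at 0.404 and 0.0614 TPM in R406, against 16.4 and 9.52 TPM in DMSO (log2 −3.47, SE 0.32, limma adjusted p = 0.0149). C1qc stood at 0.368 and 0.109 TPM in R406, against 8.37 and 6.56 TPM in DMSO (log2 −2.77, SE 0.23, limma adjusted p = 0.0127). C1qa stood at 0.165 and 0.289 TPM in R406, against 11.0 and 3.41 TPM in DMSO (log2 −2.57, SE 0.49, limma adjusted p = 0.0469). The groups were far apart for each chain, and the DMSO libraries differed most from each other for C1qa. The R406 means were 3.16% (C1qa), 1.80% (C1qb) and 3.20% (C1qc) of the DMSO means.

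The receptor genes of the class kept different parts of their DMSO level in R406. Csf1r, the receptor for the growth factors CSF1 and IL-34 on which macrophages depend, stood at 0.685 and 0.626 TPM in R406, against 3.04 and 2.62 TPM in DMSO (log2 −1.21, limma adjusted p = 0.0302). Without DMSO replicate 1 its adjusted p was 0.109, and without DMSO replicate 2 it was 0.0534. Fcgr3, a low-affinity receptor for IgG that signals through Fcer1g, stood at 0.765 and 1.07 TPM in R406, against 7.60 and 6.30 TPM in DMSO (log2 −2.05, limma adjusted p = 0.0165). Both genes fell, to R406 means of 23.2% (Csf1r) and 13.2% (Fcgr3) of the DMSO means, which are larger residues than those of the C1q genes. Trem2, a lipid-sensing receptor that pairs with Tyrobp, stood at 1.03 and 0.551 TPM in R406, against 4.19 and 1.98 TPM in DMSO. The groups did not overlap, but the DMSO libraries differed more than 2-fold from each other and the gene did not pass (limma adjusted p = 0.109). Cd33, a sialic acid-binding receptor, stood at 0.234 and 0.400 TPM in R406, against 2.24 and 1.72 TPM in DMSO (limma adjusted p = 0.0376). That call was lost without R406 replicate 1 (adjusted p = 0.0605) and without DMSO replicate 1 (adjusted p = 0.121). Folr2, a folate receptor found on tissue-resident macrophages, stood at 0.304 and 0.636 TPM in R406, against 2.22 and 1.19 TPM in DMSO, and did not pass (limma adjusted p = 0.126).

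The Ms4a genes encode membrane proteins with several spans, and the Clec genes encode lectin receptors for microbial sugars and lipids. Ms4a6d stood at 0.339 and 0.517 TPM in R406, against 18.6 and 24.2 TPM in DMSO (log2 −3.96, limma adjusted p = 0.00886). Ms4a7 stood at 0.283 and 0.0554 TPM in R406, against 7.17 and 9.94 TPM in DMSO (log2 −3.02, limma adjusted p = 0.0125). Both were among the most abundant genes of the class in DMSO and were near 0 in R406. Ms4a6c lies with them on chromosome 19 (chr19:11321039-11604804 holds all of them), and it was listed at 0 and at 0.0207 TPM in R406, against 1.57 and 1.51 TPM in DMSO. It was too low for the test. Clec4d was listed at 0 and at 0.0505 TPM in R406, against 3.00 and 2.40 TPM in DMSO (log2 −1.85, limma adjusted p = 0.0171). Clec7a, the receptor for fungal beta-glucan, was already below 0.5 TPM in DMSO, at 0.0301 TPM and listed at 0 in R406, against 0.302 and 0.395 TPM in DMSO.

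Spi1, which encodes PU.1, fell to near 0. It stood at 0.0338 and 0.0328 TPM in R406, against 2.94 and 1.84 TPM in DMSO (log2 −1.70, SE 0.23, limma adjusted p = 0.0250), and its R406 mean was 1.39% of its DMSO mean. Adgre1, the gene of the F4/80 antigen by which mouse macrophages are commonly recognised, was listed at 0 and at 0.0390 TPM in R406, against 0.972 and 0.774 TPM in DMSO. It was too low for the test, and its groups did not overlap.

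Some defining markers were low in every library. Itgam, the CD11b chain of complement receptor 3, was listed at 0 in both R406 libraries, against 0.256 and 0.156 TPM in DMSO. Cx3cr1, the fractalkine receptor, was listed at 0 in both R406 libraries, against 0.135 and 0.0144 TPM in DMSO, and Fcgr1, the high-affinity IgG receptor, was listed at 0 in R406, against 0.0670 and 0.0505 TPM in DMSO. Cybb, the catalytic subunit of the phagocyte oxidase, was listed at 0 in all 4 libraries. The DMSO libraries thus held several macrophage genes at high levels beside others at or near 0. Cd163, a haemoglobin scavenger receptor, was listed at 0 and at 0.0150 TPM in R406, against 0.280 and 0.167 TPM in DMSO, and Mpeg1, a pore-forming protein, stood at 0.0474 and 0.0462 TPM, against 0.577 and 0.405 TPM. Aif1, which encodes IBA1, was the only gene of the class above 0 whose groups overlapped, at 0.157 and 0.771 TPM in R406, against 0.212 and 0.472 TPM in DMSO.

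The residue in R406 varied among the 14 myeloid-restricted genes with at least 0.5 TPM in DMSO. For each gene, 4 percentages were formed by setting each R406 library against each DMSO library. Ms4a6c, Clec4d, Spi1, C1qb, Ms4a7, Ms4a6d, Adgre1, C1qa and C1qc had R406 means at 0.673% to 3.20% of DMSO, and none of their single percentages exceeded 8.47%. Fcgr3, Cd33, Csf1r, Trem2 and Folr2 had R406 means at 13.2% to 27.6% of DMSO, and none of their single percentages was under 10.1%. These 2 sets of genes were told apart after their values were seen, and the difference between them was not tested.

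**Figure D2:**
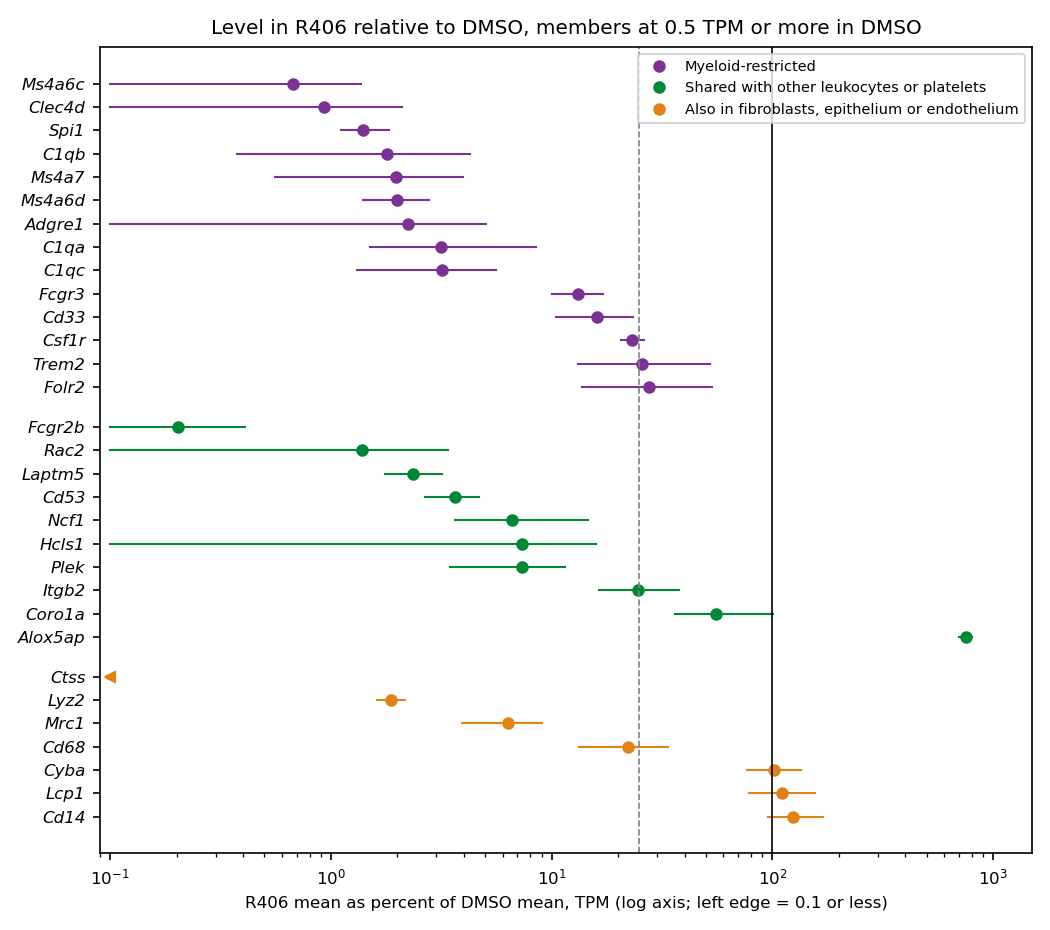
R406 mean as a percentage of the DMSO mean, on a log axis, for the 31 macrophage genes with a DMSO mean of at least 0.5 TPM; points are coloured by class, lines span the 4 percentages of single R406 and DMSO libraries, and anything at 0.1% or less is drawn at the left edge (Ctss, listed at 0 in both R406 libraries, as a triangle). The dashed line marks 25% and the solid line 100%; 24 genes lie left of the dashed line, and Alox5ap lies at 751%.

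The genes shared with other leukocytes or with platelets held both falls and 1 large rise. Of 12 genes, 6 were tested, of which 3 fell, 1 rose and 2 did not pass. The class median was −0.90 on the log2(TPM + 1) scale over all 12.

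Fcgr2b, the inhibitory IgG receptor, was listed at 0 and at 0.0188 TPM in R406, against 4.71 and 4.60 TPM in DMSO (log2 −2.49, SE 0.18, limma adjusted p = 0.0121). Its gene lies within 105 kb of Fcgr3 on chromosome 1 (chr1:170960558-171065915 holds both), yet Fcgr3 kept 13.2% of its DMSO mean in R406 and Fcgr2b 0.202%. Cd53, a tetraspanin, stood at 0.237 and 0.398 TPM in R406, against 8.48 and 8.83 TPM in DMSO (log2 −2.88, limma adjusted p = 0.0110). Laptm5, a lysosomal protein of blood cells, stood at 0.119 and 0.0899 TPM in R406, against 5.12 and 3.73 TPM in DMSO (log2 −2.28, limma adjusted p = 0.0151). The R406 libraries were low and close together for all 3 genes.

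Alox5ap went the other way. It lies on chromosome 5 (chr5:149265004-149288153) and encodes FLAP, the protein that presents arachidonic acid to 5-lipoxygenase at the start of leukotriene synthesis. It stood at 60.7 and 56.7 TPM in R406, against 8.06 and 7.58 TPM in DMSO, a rise of 7.51-fold (log2 2.76, SE 0.18, limma adjusted p = 0.0110). The 2 libraries of each group were close together and the groups far apart. In R406 Alox5ap made up most of the class sum, which was 62.9 and 58.9 TPM in R406, against 36.9 and 31.6 TPM in DMSO. The myeloid-restricted and shared genes together added up to 67.7 and 64.2 TPM in R406, against 128 and 107 TPM in DMSO. Without Alox5ap, left out after its values were seen, these sums were 7.01 and 7.50 TPM in R406, against 120 and 99.7 TPM in DMSO.

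The remaining shared genes were low or did not pass. Itgb2, the common beta chain of leukocyte integrins, stood at 0.589 and 0.418 TPM in R406, against 2.55 and 1.55 TPM in DMSO (limma adjusted p = 0.0726). Coro1a, an actin regulator of leukocytes, stood at 1.07 and 0.896 TPM in R406, against 2.48 and 1.07 TPM in DMSO (limma adjusted p = 0.424), and its groups overlapped. Plek, Rac2, Ncf1 and Hcls1, which act in leukocyte signalling, oxidase assembly and the cytoskeleton, were too low for the test. Their DMSO means ran from 0.816 to 1.83 TPM, their R406 means were 1.38% to 7.34% of these, and their groups did not overlap. Ptprc, the gene of the pan-leukocyte antigen CD45, was listed at 0 in both R406 libraries, against 0.0829 and 0.142 TPM in DMSO. Cd52 was listed at 0 in 3 libraries and stood at 0.0843 TPM in DMSO replicate 1.

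Among the genes also expressed outside the blood lineages, 4 fell and 3 of the 7 tested did not pass, with Lyz2 at the largest difference of the 25 tested genes on the log2(TPM + 1) scale. Lyz2 encodes the lysozyme of macrophages and granulocytes, which alveolar epithelium also makes. It stood at 3.86 and 3.33 TPM in R406, against 207 and 179 TPM in DMSO (log2 −5.40, SE 0.19, limma adjusted p = 0.00785). No other gene among the 13929 tested had a more negative difference on that scale, which understates the change of low genes. Its R406 mean was 1.86% of its DMSO mean, close to the percentages of the C1q and Ms4a genes. Lyz1, its near-identical neighbour on chromosome 10 (chr10:117277541-117292868 holds both), was listed at 0 in 3 libraries and stood at 0.334 TPM in DMSO replicate 1. Reads that fit both lysozyme genes may have been split, so the value of each is uncertain.

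Cd68, a lysosomal glycoprotein abundant in macrophages and present in fibroblasts, stood at 1.35 and 2.60 TPM in R406, against 7.74 and 10.2 TPM in DMSO (log2 −1.76, limma adjusted p = 0.0335). Its adjusted p was 0.0572 without DMSO replicate 1 and 0.0631 without DMSO replicate 2. Ctss, a lysosomal protease that trims the invariant chain of MHC class II, was listed at 0 in both R406 libraries, against 2.68 and 1.97 TPM in DMSO (limma adjusted p = 0.0192). Mrc1, the mannose receptor, which sinusoidal and lymphatic endothelium share, stood at 0.0883 and 0.178 TPM in R406, against 1.97 and 2.24 TPM in DMSO (log2 −1.45, limma adjusted p = 0.0215). For these genes no R406 library reached the lower DMSO library.

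Cyba, Cd14 and Lcp1 did not differ beyond the spread between libraries. Cyba, the smaller membrane subunit of NADPH oxidases, which many cell types express, stood at 172 and 126 TPM in R406, against 163 and 128 TPM in DMSO (limma adjusted p = 0.966). Its partner Cybb was listed at 0 in the same libraries. Cd14, a co-receptor for bacterial lipopolysaccharide, stood at 14.2 and 15.4 TPM in R406, against 14.8 and 9.04 TPM in DMSO (limma adjusted p = 0.516). Lcp1, an actin-bundling protein of leukocytes and some epithelia, stood at 1.82 and 1.28 TPM in R406, against 1.17 and 1.64 TPM in DMSO (limma adjusted p = 0.852). A missed threshold with 2 libraries per group does not show that these levels are equal.

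In DMSO, the order of levels was led by Lyz2 (193 ± 19.7 TPM, SD, n = 2 libraries) and Cyba (146 ± 24.7 TPM), followed by Ms4a6d (21.4 ± 3.96 TPM), and these 3 were each clear of the next. Ranks 4 to 12 ran from C1qb (13.0 ± 4.87 TPM) to Fcgr3 (6.95 ± 0.919 TPM), and each overlapped its neighbour. Another 16 genes lay between 1 and 5 TPM, 3 lay between 0.5 and 1 TPM, and 11 lay under 0.5 TPM. In R406, Cyba (149 ± 33.0 TPM), Alox5ap (58.7 ± 2.83 TPM) and Cd14 (14.8 ± 0.824 TPM) were followed by Lyz2 (3.59 ± 0.374 TPM), and 31 of the 42 genes averaged under 0.5 TPM.

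Of the 18 calls among the 42 genes, 15 held when any 1 library was left out, and the exceptions were Csf1r, Cd33 and Cd68. Without any filter on low values, limma made 0 calls, on these genes or over the whole table, where 5394 of 27879 genes (19.3%) had an unadjusted p under 0.05. Of the 41 macrophage genes in that fit, 31 were lower and 1 was higher at an unadjusted p under 0.05.

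Other genes of macrophage biology, 75 in 5 lists, moved less uniformly. Of the 37 that were tested, 9 fell and 0 rose, and the median over all 75 on the log2(TPM + 1) scale was −0.22. For the 51 with at least 0.5 TPM in DMSO, the R406 mean was at a median of 59.3% of the DMSO mean. The lists differed in this. The median was 1.92% over 11 scavenger, lectin and Toll-like receptor genes, below the 6.32% of the macrophage genes, and 99.9% over 9 transcription factors. The adaptors Tyrobp and Fcer1g carry the motifs that recruit Syk to receptors such as Trem2 and Fcgr3. Tyrobp stood at 0.230 TPM and was listed at 0 in R406, against 8.43 and 9.14 TPM in DMSO, and Fcer1g stood at 0.287 and 0.386 TPM, against 6.69 and 9.21 TPM. Both fell, with limma adjusted p of 0.0110 and 0.0127. Among receptors, the lectin gene Clec4n stood at 0.0490 TPM and was listed at 0 in R406, against 18.2 and 15.6 TPM in DMSO (limma adjusted p = 0.00785). Lyve1, a hyaluronan receptor of some tissue macrophages and lymphatic endothelium, stood at 0.106 and 0.0693 TPM in R406, against 4.29 and 4.86 TPM in DMSO. Csf2rb, the common beta chain of cytokine receptors, stood at 0.576 and 0.254 TPM in R406, against 3.56 and 3.80 TPM in DMSO. Lyve1 and Csf2rb fell as well, with limma adjusted p of 0.0125 and 0.0192. Axl, a receptor for apoptotic cells that fibroblasts also express, fell less far, to 15.7 and 14.0 TPM in R406, against 58.4 and 44.1 TPM in DMSO (limma adjusted p = 0.0215).

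Of the ligands of Csf1r, Csf1 was well expressed in all 4 libraries and Il34 was low. Csf1 stood at 34.2 and 23.9 TPM in R406, against 63.1 and 44.0 TPM in DMSO, with no overlap and no call (limma adjusted p = 0.138). Il34 stood at 0.644 and 0.110 TPM in R406, against 1.70 and 0.837 TPM in DMSO, too low for the test. Tnfrsf1b, a receptor for tumour necrosis factor, stood at 2.12 and 1.71 TPM in R406, against 0.874 and 0.960 TPM in DMSO, without a call (limma adjusted p = 0.128). Among transcription factors of the lineage, Irf5 fell to 0.503 and 0.477 TPM in R406, against 2.16 and 1.91 TPM in DMSO, and Maf to 4.70 and 5.38 TPM, against 11.4 and 11.1 TPM (limma adjusted p of 0.0394 and 0.0410). The other 6 factors tested did not pass. Among 14 genes of lysosomes and lipid handling, which most cells use, 1 fell, the nuclease gene Pld4, at 0.325 and 0.0604 TPM in R406, against 4.32 and 2.11 TPM in DMSO (limma adjusted p = 0.0405). The cathepsin gene Ctsl stood at 1032 and 1025 TPM in R406, against 1960 and 1791 TPM in DMSO, with an adjusted p of 0.0580.

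Markers of other blood cells were read in the same libraries, and their part in the results above was not tested. Of 10 neutrophil and granulocyte markers, 1 fell, S100a8, at 5.49 and 8.88 TPM in R406, against 26.3 and 23.0 TPM in DMSO (limma adjusted p = 0.0321). Ly6g stood at 0.608 and 0.457 TPM in R406, against 4.50 and 2.03 TPM in DMSO (limma adjusted p = 0.0695), Camp, Ngp and Retnlg were listed at 0 in all 4 libraries, and the list added up to 7.10 and 9.64 TPM in R406, against 32.1 and 27.2 TPM in DMSO. Of 10 megakaryocyte and platelet markers, the chemokine genes Pf4, which some macrophages also express, and Ppbp fell (limma adjusted p = 0.00785 for each). Pf4 stood at 0.552 and 1.10 TPM in R406, against 43.6 and 49.7 TPM in DMSO, and Ppbp at 0.380 and 0.212 TPM, against 32.9 and 28.2 TPM. The receptor genes Gp9 and Gp6, which define platelets, were listed at 0 in all 4 libraries, and so was Treml1. Gp1bb, a chain of the platelet receptor for von Willebrand factor, stood at 10.9 and 2.73 TPM in R406, against 23.9 and 5.23 TPM in DMSO (limma adjusted p = 0.562), and Itga2b, a platelet integrin chain, at 2.07 and 1.57 TPM, against 1.93 and 1.12 TPM (0.710). The platelet list added up to 14.6 and 6.05 TPM in R406, against 103 and 84.6 TPM in DMSO. Of 7 B cell markers, Ebf1, which stromal cells also express, was the highest, at 0.393 and 0.611 TPM in R406, against 0.683 and 0.900 TPM in DMSO. The B cell list added up to 0.946 and 0.837 TPM in R406, against 1.10 and 1.03 TPM in DMSO.

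MHC class II genes, which macrophages can present antigen with, did not follow the macrophage genes. Of 7 genes, 4 were tested and 1 rose. That gene was H2-Aa, named after its values were seen, at 15.2 and 12.0 TPM in R406, against 2.90 and 1.58 TPM in DMSO (limma adjusted p = 0.0210). H2-Ab1 stood at 106 and 55.5 TPM in R406, against 57.9 and 42.5 TPM in DMSO, and did not pass (limma adjusted p = 0.354). H2-DMa was lower on average in R406, at 22.14 and 11.05 TPM, against 26.39 and 15.23 TPM in DMSO, with overlap (limma adjusted p = 0.671). Cd74 stood at 0.384 TPM and was listed at 0 in R406, against 0.260 and 0.139 TPM in DMSO. Ciita averaged 0.0114 TPM in R406 and 0.114 TPM in DMSO, and both genes were too low for the test.

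Fibroblast and epithelial markers showed what else the libraries held. The 14 fibroblast markers added up to 6096 and 4391 TPM in R406, against 5094 and 4137 TPM in DMSO, with 1 called higher and 3 called lower. The R406 mean was 300% of the DMSO mean for Col3a1, the gene called higher. It was 24.3% for Fbn1, 21.7% for S100a4 and 35.1% for Fap, the genes called lower. Twist1 stood at 1438 and 863 TPM in R406, against 1484 and 914 TPM in DMSO (limma adjusted p = 0.936), and Thy1 at 837 and 749 TPM, against 1145 and 1065 TPM (0.191). Fibroblast RNA was thus abundant in every library, as the labels have it. The 10 epithelial markers added up to 815 and 466 TPM in R406, against 155 and 150 TPM in DMSO, and 7 of the 9 tested rose. Epcam stood at 238 and 151 TPM in R406, against 21.6 and 33.1 TPM in DMSO (limma adjusted p = 0.0192), and Krt8 at 231 and 119 TPM, against 25.2 and 30.8 TPM (0.0264). The part of these shifts in the macrophage results was not tested.

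**Figure D3:**
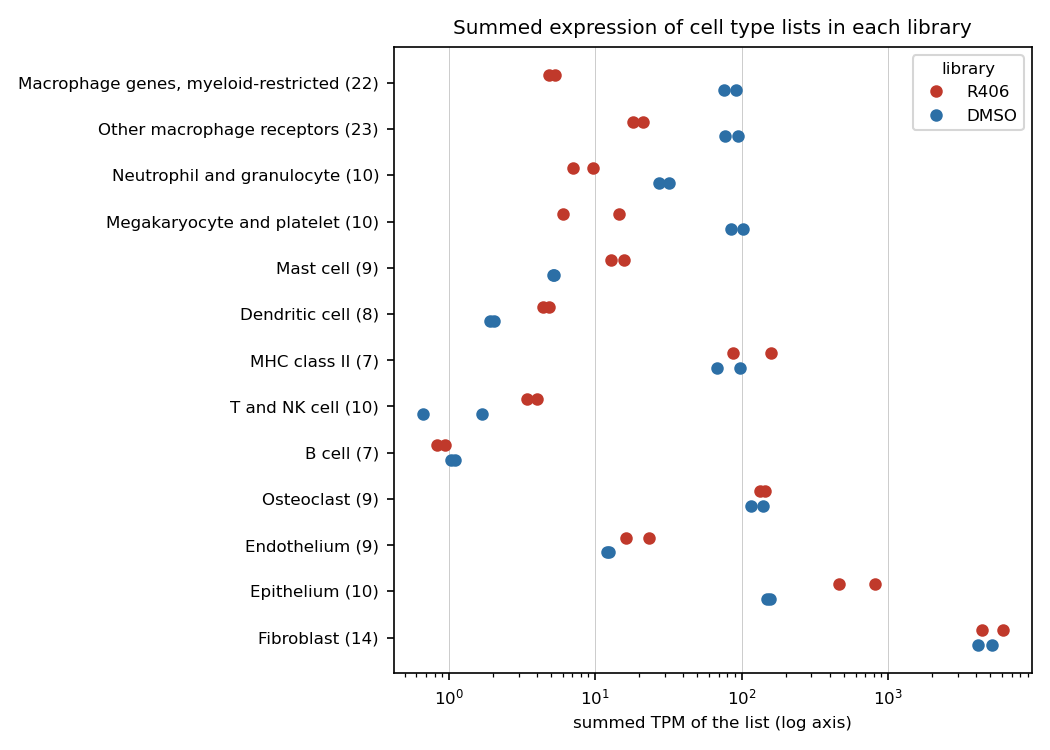
Summed TPM of 13 marker lists, on a log axis, in the 2 R406 libraries (red) and the 2 DMSO libraries (blue), with the number of genes in each list in parentheses. The sum of the myeloid-restricted macrophage genes lies at 4.85 and 5.29 TPM in R406, against 91.1 and 75.6 TPM in DMSO, while the fibroblast sums of the groups overlap and the epithelial sums lie higher in R406.

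FLAG-Nfatc1 peaks were found at macrophage genes about as often as at genes in general. The authors' lists hold 36885 peaks with R406 and 21246 with DMSO, and a peak was joined to a gene if it touched the gene or 5 kb on either side of it (mm10 peaks, RefSeq genes of GRCm38.p6). Of the 42 genes, 15 (35.7%) had a peak in the R406 library, against 39.9% of 37710 genes, and 11 (26.2%) had a peak in the DMSO library, against 28.1% of genes. With 1 library per condition there is no replicate check. A peak was found in both libraries at 9 genes, in the R406 library alone at 6, in the DMSO library alone at 2, and in neither at 25. The genes with none included Lyz2, Ms4a6d, C1qa, C1qc, Cd53, Fcgr2b, Laptm5 and Alox5ap, while C1qb and Ms4a7 had a peak. Taking each library singly, most of the 37710 genes also had no peak. The share of all genes with none in both libraries was not computed, so this split is a description.

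The highest peak at a macrophage gene lay in Csf1r, with a fold enrichment, as the authors' caller gave it, of 33.5 in the R406 library and 27.0 in the DMSO library. At Fcgr3 the strongest peaks had a fold of 26.6 with R406 (chr1:171063699-171065642) and 18.2 with DMSO (chr1:171064061-171065116), and their positions overlapped. Itgb2 held a peak with a fold of 12.0 in the R406 library and 16.8 in the DMSO library. Spi1 held 1 weak peak, with a fold of 4.37, in the DMSO library alone. Start sites were listed for 32 of the 42 genes, and 1 of them had a peak summit within 1 kb of its listed start site. That gene was Plek, whose peak (chr11:17008207-17008925, fold 13.8, summit 28 bases after the start site) was in the DMSO list alone. Csf1r, Cd14, Itgb2 and Spi1 held peaks but had no listed start site. The listed start of Fcgr3 lies inside the gene. Its peaks at chr1:171065407-171066425 with DMSO and chr1:171065950-171066774 with R406 lay at or beside an end of the gene, position 171065915. The count therefore depends on which start sites are listed. Such folds describe peaks within 1 list and do not measure a change between the libraries.

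**Figure D4:**
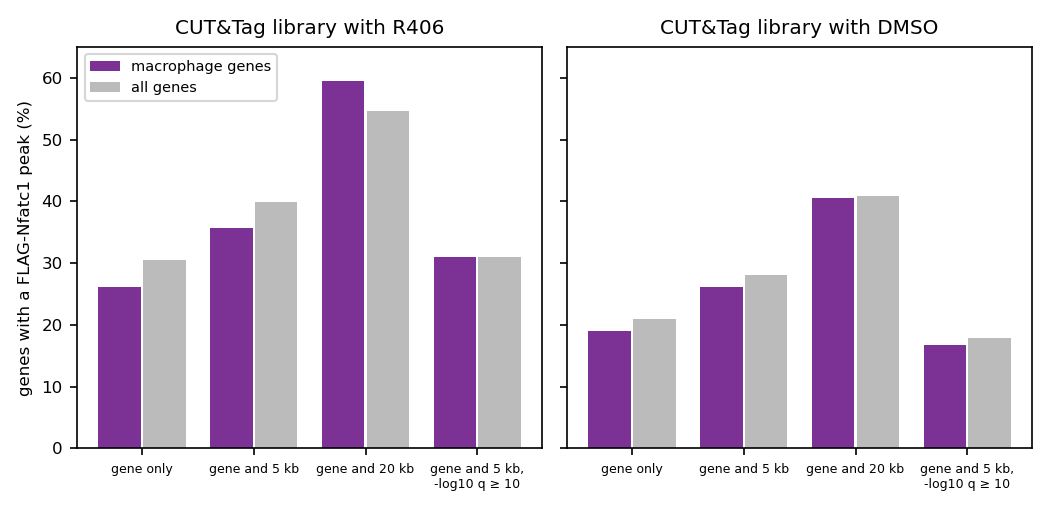
Percentage of the 42 macrophage genes (purple) and of all 37710 genes (grey) with a FLAG-Nfatc1 peak, in the CUT&Tag library with R406 (left) and with DMSO (right), for the gene alone, with 5 kb or 20 kb on either side, and with 5 kb for peaks at a −log10 q-value of at least 10. The purple and grey bars are of like height throughout, for example 35.7% and 39.9% with R406 and 26.2% and 28.1% with DMSO at 5 kb.

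Promoter sequences are shown for the 5 genes with the largest falls among those with 1 listed start site, and for Plek, the gene with a peak summit near its listed start. Each is the 150 bases before the start site, 5′ to 3′ on the gene's strand, from RefSeq on GRCm38.p6, and all lie on the minus strand. Capitals mark GAGGAA or its reverse complement TTCCTC, the core of the box that PU.1 is known to bind.
Lyz2, chr10:117282273-117282422: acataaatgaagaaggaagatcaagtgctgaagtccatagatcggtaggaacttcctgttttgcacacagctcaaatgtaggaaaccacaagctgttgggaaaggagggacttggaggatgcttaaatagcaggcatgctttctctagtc
C1qb, chr4:136886201-136886350: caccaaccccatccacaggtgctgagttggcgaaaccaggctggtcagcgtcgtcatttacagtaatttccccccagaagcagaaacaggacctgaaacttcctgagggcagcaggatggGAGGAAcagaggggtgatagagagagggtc
Cd53, chr3:106790150-106790299: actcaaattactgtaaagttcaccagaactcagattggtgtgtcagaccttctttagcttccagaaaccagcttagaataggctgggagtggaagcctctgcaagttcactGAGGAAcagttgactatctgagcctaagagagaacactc
C1qc, chr4:136892915-136893064: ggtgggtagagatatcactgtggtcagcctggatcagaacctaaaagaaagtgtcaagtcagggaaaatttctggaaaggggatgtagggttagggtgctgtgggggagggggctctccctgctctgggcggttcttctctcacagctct
Fcgr2b, chr1:170976072-170976221: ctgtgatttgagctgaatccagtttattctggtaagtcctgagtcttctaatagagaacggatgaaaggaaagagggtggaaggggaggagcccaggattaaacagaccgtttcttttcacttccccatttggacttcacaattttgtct
Plek, chr11:17008719-17008868: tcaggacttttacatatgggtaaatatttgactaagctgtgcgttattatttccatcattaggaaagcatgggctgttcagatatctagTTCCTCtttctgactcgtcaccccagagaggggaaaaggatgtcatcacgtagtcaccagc

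The box GAGGAA, on either strand, stood in the window of C1qb, Cd53 and Plek and not in those of Lyz2, C1qc and Fcgr2b. Of the 32 macrophage genes with a listed start site, 11 (34.4%) held it in these 150 bases, against 14.4% of 27025 promoters. The shorter NFAT core GGAAA, on either strand, was held by 21 of the 32 (65.6%), against 37.8% of promoters, and the 2 motifs overlap where GAGGAA is followed by A. The windows of macrophage genes were also poorer in G and C, at a median of 44.7%, against 54.0% over all promoters, and the part of base composition in these shares was not tested. A match of letters is a description and shows no binding.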

How the data were processed

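The authors deposited TPM per gene for 4 RNA-seq libraries, as a table and as 4 single files equal to it. HISAT2 2.1.0, StringTie 2.0 and the build mm10 are named in the submitters' processing notes, without their settings, and per the labels' protocols the RNA kit was NEBNext Ultra, which keeps no strand information. The authors deposited 1 peak list per CUT&Tag library whose columns give each peak's score, fold enrichment, and −log10 of its p-value and of its q-value. The notes name Bowtie2 2.2.5 and MACS2 2.1.2, with no role or setting. A blank library was not analysed here.

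Symbols matched 53620 of 53715 genes. The RNA comparison of R406 with DMSO used limma 3.58.1 (R 4.3.3, two-sided tests, mean-variance trend) on log2(TPM + 1) of the 13929 genes averaging 1 TPM or more, and p-values were Benjamini-Hochberg adjusted over these. A log2 difference on this scale understates the change of low genes. The fit was tested on simulated data. Peaks were joined to genes in Python 3.11.15. Groups came from sample titles. All 42 genes were accounted for, and up to 4 genes per further macrophage list, by smallest p, and up to 2 per cell type list, by mean level, were named, besides Csf1 and Il34 as ligands of Csf1r. Markers listed at 0, and H2-Aa, Cd74, Ciita, Gp1bb, Itga2b, Tnfrsf11a, Atp6v0d2, Col3a1, Fbn1, S100a4 and Fap, were named after their values were seen. The genes, classes and lists were chosen with earlier results of these data known. Alternatives covered pseudocounts, filters, scaling, the prior, left-out libraries and a replicate block.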

Additional observations from a re-analysis of the deposited data

How the results depend on the processing

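The count of 17 macrophage genes called lower and 1 called higher stayed within 1.5 times under all alternatives but the filters. It was 0 and 0 with no filter (limma, 31 lower and 1 higher of 41 at an unadjusted p under 0.05) and 4 lower with a mean of at least 5 TPM, where 7 of the genes were tested. With a mean of at least 0.5 TPM, Ms4a6c, Plek and Rac2 were also called lower. Leaving out 1 library gave 14 to 17 lower and 1 higher. The median over the 42 genes, −1.05, was −2.26 with a pseudocount of 0.1, −1.41 with 0.5, −1.30 with mitochondrial, ribosomal protein and Gm genes removed, and −1.24 to −0.78 on leaving out a library. Over the whole table, 593 genes were higher and 564 lower. These counts were 0 and 0 with no filter, 311 and 332 with a mean of at least 5 TPM, and 1097 and 999 without mitochondrial, ribosomal protein and Gm genes. Median centring gave 933 higher, quantile normalization gave 850 lower, and leaving out 1 library gave 159 to 914 higher and 158 to 574 lower, the lowest without DMSO replicate 1. The cause of these shifts was not tested.

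Same-numbered libraries deviated together (r = 0.556 across 13929 genes, which are not independent), but with 2 pairs and no label to that effect the numbers were not taken to pair the samples. With the replicate block, 2128 genes were higher and 2535 lower, 19 macrophage genes were lower and 1 was higher, with Trem2 (adjusted p = 0.0176) and Itgb2 (0.0234) added, and the median was −1.05. For a window of 20 kb, 25 macrophage genes (59.5%) had a peak with R406, against 54.6% of all genes. With DMSO 17 (40.5%) had one, against 40.9%. At a −log10 q-value of at least 10, 13 macrophage genes (31.0%) had a peak with R406, against 31.0% of all genes. With DMSO 7 (16.7%) had one at that value, against 17.8%. TPM keeps no depth, so no counting error can be given for genes near 0.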

Other observations

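Some markers of other cell types stood higher in R406. Of 9 mast cell markers, the receptor gene Kit stood at 11.0 and 9.42 TPM in R406, against 4.30 and 4.09 TPM in DMSO (limma adjusted p = 0.0373), and the chymase gene Cma1 at 3.90 and 2.36 TPM, against 0.588 and 0.644 TPM (0.0443). Fcer1a was listed at 0 in all 4 libraries. Cpa3, Mcpt4, Tpsab1 and Ms4a2 were listed at 0 in both R406 libraries and stood at 0.0782 TPM or less in DMSO. Among 10 markers of T and NK cells 1 was tested, the kinase gene Lck, at 2.35 and 1.83 TPM in R406, against 0.665 and 1.47 TPM in DMSO (limma adjusted p = 0.232). Nkg7, too low for the test, stood at 1.32 and 1.21 TPM in R406 and was listed at 0 in both DMSO libraries. Cd3d, Cd3e and Cd3g were listed at 0 in every library. Of 8 dendritic cell markers 2 were tested and 0 were called by limma, with both at an unadjusted p under 0.05, as were 26.8% of all genes tested. Batf3 stood at 1.80 and 2.18 TPM in R406, against 0.801 and 1.01 TPM in DMSO, and Zbtb46 at 1.58 and 1.64 TPM, against 0.994 and 0.598 TPM. The dendritic cell markers Cd209a and Siglech were listed at 0 in all 4 libraries. Xcr1 and Itgax were listed at 0 in both R406 libraries and in 1 DMSO library. In the other DMSO library they stood at 0.0292 TPM (Xcr1) and 0.0719 TPM (Itgax).

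Genes of osteoclasts, which arise from the macrophage lineage, were mixed. R406 libraries lay below both DMSO libraries for 3 of the 9 genes, above both for 3, and overlapped them for 3. Among all genes tested 30.2% lay below and 25.9% above, but those averaged 1 TPM or more, as only 2 of the 9 did. Neither of the 2 osteoclast genes tested was called. The 9 genes added up to 144 and 133 TPM in R406, against 140 and 117 TPM in DMSO, most of it from Acp5 and Ctsk. Acp5 stood at 52.3 and 59.0 TPM in R406, against 34.0 and 30.4 TPM in DMSO (limma adjusted p = 0.0746), Ctsk at 90.2 and 72.9 TPM, against 104 and 84.1 TPM (0.617), and Dcstamp was listed at 0 in all 4 libraries. Tnfrsf11a, the receptor RANK, stood at 0.414 and 0.217 TPM in R406, against 0.905 and 1.14 TPM in DMSO, and Atp6v0d2, a proton pump subunit, was listed at 0 and at 0.0263 TPM in R406, against 0.305 and 0.359 TPM in DMSO, both too low for the test. Of 9 endothelial markers 1 rose, the adhesion gene Esam, at 11.2 and 7.02 TPM in R406, against 1.22 and 1.18 TPM in DMSO (limma adjusted p = 0.0193), and Kdr stood at 6.91 and 6.49 TPM in R406, against 8.27 and 8.66 TPM in DMSO.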
